A study of Mus musculus with 6 samples.

Results

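The serotonin receptor genes were examined in pancreatic islets of the mouse, the clusters of hormone-secreting endocrine cells within the exocrine pancreas. They were the 10 genes Htr1a, Htr1b, Htr1d, Htr1f, Htr2a, Htr2b, Htr2c, Htr3a, Htr3b and Htr4, and their probe sets were those to which the platform annotation gave that symbol and no other. This gave 16 probe sets of 9 genes among 45101 probe sets on the array. No probe set carries Htr2a as its single symbol, so Htr2a was not analysed here. Islets from pregnant mice at 12.5 days post coitum (dpc; 3 arrays) were set against islets from non-pregnant mice at 0 dpc (3 arrays), all isolated with collagenase. The study asked which factors drive islet growth in pregnancy. The labels give no strain, age or number of animals for either group. Whether replicate arrays stem from different mice is not said, so p-values here reflect array-to-array spread that could be purely technical.

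Serotonin is made from tryptophan, and in the mouse the beta cells of islets make it in large amounts during pregnancy. Cells sense it through receptors of several families. The HTR1 receptors couple to inhibitory G proteins and lower cyclic AMP, the HTR2 receptors couple to Gq and release calcium from stores through phospholipase C, and HTR4 couples to Gs and raises cyclic AMP. HTR3 receptors are unlike the others: they are cation channels of the Cys-loop family, built from several subunits around a pore, which serotonin opens. In mouse islets, earlier work tied Htr2b to beta cell division in mid-pregnancy, Htr1d to the return of beta cell mass at its end, and Htr3a to insulin secretion.

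The deposited value for each probe set and array is a MAS5 signal, a background-corrected intensity on a linear scale that the authors scaled to a common level per array. Median signals of the arrays lay between 86.1 and 100.3. Dimness was judged against 3 control probe sets for TrpnX, a bacterial transcript that mouse RNA does not contain, whose 18 signals ran from 1.1 to 32.3. Islet identity was clear on all arrays, since all 10 islet endocrine markers that were named on the array, among them Ins2, Iapp, Gcg and Sst, were above the controls on all 6. As a sign of RNA quality, signals of 3' over 5' control probe sets of beta actin were 1.63 to 1.665 in pregnant and 1.556 to 1.626 in non-pregnant arrays. These ranges did not overlap but nearly touched, and those of Gapdh overlapped (0.687 to 0.725 and 0.669 to 0.711).

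Most serotonin receptor probe sets did not stay above the bacterial controls on every array, and Htr3a fell in pregnant islets. Of the 16 probe sets, 3 were above the highest control signal of 32.3 on all 6 arrays, 9 on some and 4 on none. Across the whole array, 56.9% of probe sets were above it on all 6 arrays. The 3 were Htr3a and 1 probe set each of Htr1b and Htr1a. Read by the brightest probe set, 68.3% of all named genes were above it on all 6. By array, 6, 8 and 7 of the 16 were above it on pregnant arrays 1, 2 and 3, and 8, 9 and 7 on non-pregnant arrays 1, 2 and 3. When each array was held to its own highest control signal instead, 4 probe sets were above it throughout, the added one being Htr1d 1422290_at. A signal under the controls does not show that a receptor is absent, only that this probe set gave no level that can be told from background.

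**Figure D1:**
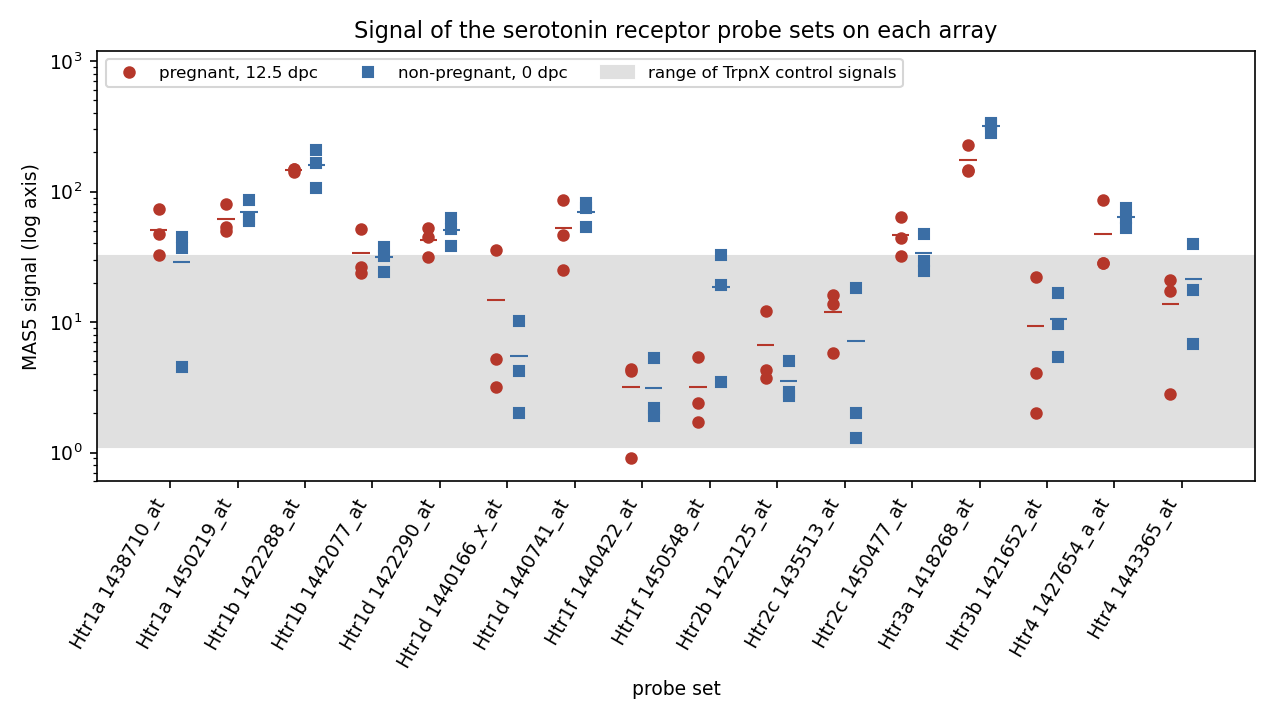
MAS5 signal of each serotonin receptor probe set on a log axis, with pregnant arrays (circles, 12.5 dpc) left of non-pregnant arrays (squares, 0 dpc), group means as short lines and the range of the TrpnX control signals (1.1 to 32.3) shaded. The Htr3a points of the groups lie apart, while those of the other 15 probe sets overlap.

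To compare the groups, a pseudocount of 16, which damps the noise of dim probe sets, was added to each signal, and the log2 values were fitted with limma over the whole table. Probe sets in the top 60% by mean value over all 6 arrays were tested, which corresponds to a signal of about 50.5, and 5 of the 16 receptor probe sets met this. They belong to Htr1a, Htr1b, Htr1d, Htr3a and Htr4. Of these 5, 0 rose and 1, Htr3a, fell at a Benjamini-Hochberg adjusted p under 0.05. Of all 27022 probe sets tested, 9.57% passed, 4.79% higher (1294) and 4.78% lower (1293) in pregnancy. Median centring of the arrays changed that split to 1430 higher against 583 lower. With no filter all 16 were fitted, with 7 higher and 9 lower estimates and a median log2 difference of -0.10, beside -0.04 over all probe sets. In that fit Htr3a was again the 1 that passed, and 4.2% of all probe sets passed. The pregnant and the non-pregnant arrays did not overlap in 1 of 16 receptor probe sets, beside 20.9% of all probe sets, and in 1 of the 5 tested, beside 27.7% of all tested. With so few probe sets tested, these counts say nothing particular about the receptors as a group.

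**Figure D2:**
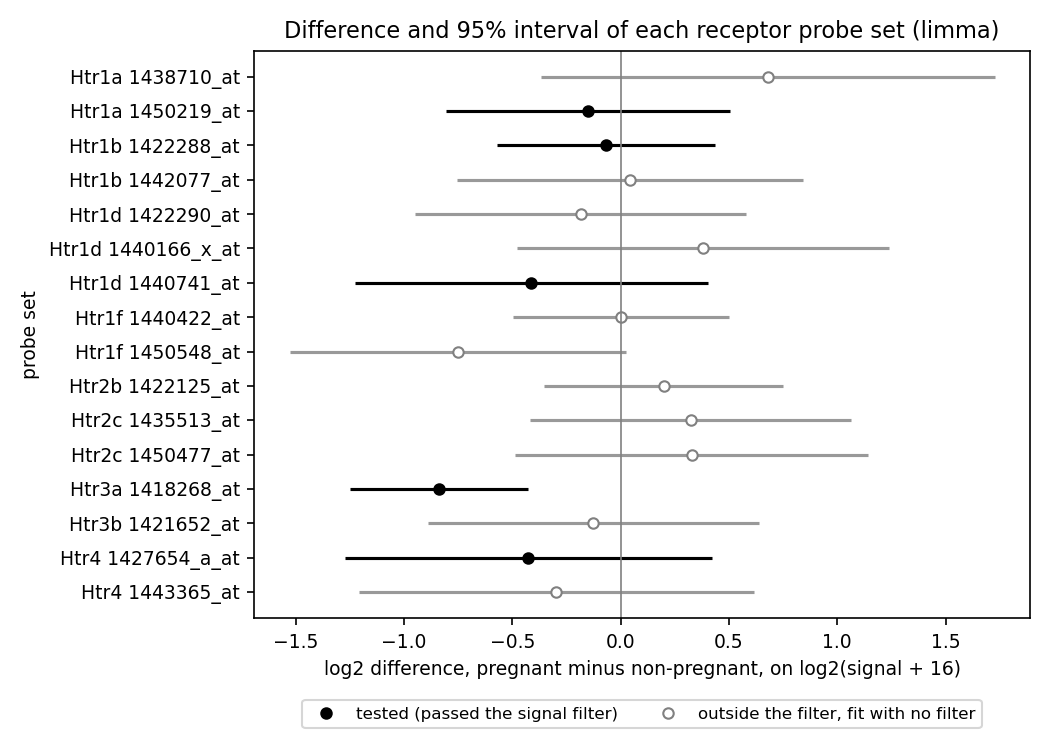
Log2 difference, pregnant minus non-pregnant, of each serotonin receptor probe set with its 95% interval from limma; filled points passed the signal filter and were tested, open points come from the fit with no filter. The interval of Htr3a, -1.25 to -0.43, lies below 0, and each of the other 15 includes 0.

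Htr3a encodes the subunit that every HTR3 channel needs and that forms channels by itself. Its probe set, 1418268_at, had signals of 144.2, 146.7 and 228.5 in pregnant islets, against 335.6, 332.1 and 281.3 in non-pregnant islets. All 3 pregnant arrays were below all 3 non-pregnant arrays, and pregnant replicate 3 was the closest to them. The mean signal was 173.1 ± 48.0 in pregnant and 316.3 ± 30.4 in non-pregnant islets (SD, n = 3 each). The log2 difference was -0.84 ± 0.19 (SE; limma adjusted p = 0.016), which is 0.56-fold with a 95% interval of 0.42 to 0.74. Every signal was well over the control range. In bulk islets fewer cells that express the gene and less RNA per cell cannot be told apart.

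The direction of the Htr3a difference held in all 18 other settings, between -1.04 and -0.66, but its call did not hold in all of them. It passed in 12 of the 18. It missed the threshold without pregnant replicate 1 (-0.73, adjusted p = 0.068), without pregnant replicate 2 (-0.74, 0.061), without non-pregnant replicate 1 (-0.80, 0.053) and without non-pregnant replicate 2 (-0.80, 0.056). It also missed it without a trend in the variance model (-0.84, adjusted p = 0.083) and with the median of the acinar markers as a covariate (-0.66 ± 0.34 SE, limma adjusted p = 0.42). That covariate was lower on every pregnant array (-0.90, -0.58 and -0.23) than on any non-pregnant array (0.85, -0.11 and 0.87). It therefore separates poorly from pregnancy, and a call lost with it does not show an acinar origin. Without pregnant replicate 3 the Htr3a difference was -1.04 (adjusted p = 0.0055).

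**Figure D3:**
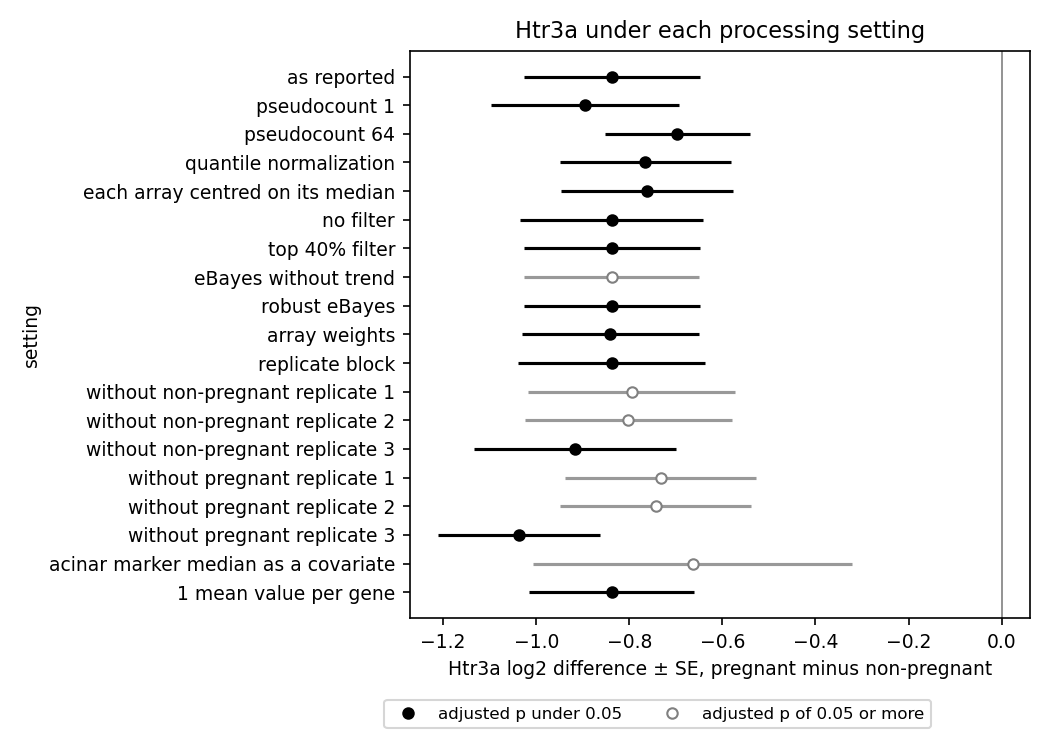
Log2 difference of Htr3a with its standard error under the reported setting and the 18 others; filled points passed an adjusted p of 0.05 in limma. All values lie between -1.04 and -0.66, and the 6 open points did not pass.

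Htr3b encodes the other channel subunit, which works only together with Htr3a. Its gene lies directly beside Htr3a in the RefSeq annotation of GRCm38.p6. The signals of Htr3b were 22.1, 4.1 and 2.0 in pregnant islets, against 5.4, 16.7 and 9.6 in non-pregnant islets. None of the 6 exceeded the highest control signal, and the groups overlap. It was too dim to be tested, and with no filter its log2 difference was -0.13 ± 0.34 (SE; limma adjusted p = 0.92). On the other side of Htr3a lies Zbtb16, a zinc finger gene whose log2 difference was -1.11 ± 0.34 (adjusted p = 0.062).

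The rest of the Cys-loop channel family was mostly dim, and a pair of nicotinic receptor genes fell. Of 40 genes listed (nicotinic acetylcholine, GABA type A and glycine receptor subunits), 35 were named on the array and 11 were bright enough to be tested. Of these, 0 rose and 2 fell, with a median log2 difference of -0.10. Over 12914 genes tested by their brightest probe set, 11.9% passed, 6.1% higher and 5.79% lower, and the median log2 difference was -0.04. Chrna3, the subunit of ganglionic nicotinic receptors, had 125.1, 107.5 and 116.6 in pregnant islets, against 216.1, 189.0 and 241.1 in non-pregnant islets. Its log2 difference was -0.80 ± 0.18 (limma adjusted p = 0.017). Chrna7, which forms calcium-permeable channels of a single subunit type, had 107.9, 229.3 and 153.7 in pregnant islets, against 305.3, 311.5 and 294.8 in non-pregnant islets. Its log2 difference was -0.89 ± 0.22 (limma adjusted p = 0.025). The groups do not overlap in either gene, with Chrna7 spread more widely over the pregnant arrays. Both calls were lost with no filter (adjusted p = 0.051 for Chrna3 and 0.064 for Chrna7) and with the acinar covariate (0.45 each). Chrna3 also missed it when pregnant replicate 2 (-0.75, 0.057) or non-pregnant replicate 3 (-0.72, 0.073) was left out. Chrna7 missed it without the variance trend (-0.89, 0.12) and without any 1 array other than pregnant replicate 2, at -0.65 (0.085) without pregnant replicate 1, -0.88 (0.067) without pregnant replicate 3, -0.88 (0.065), -0.87 (0.072) and -0.91 (0.061) without non-pregnant replicates 1, 2 and 3.

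Among the HTR1 receptors, Htr1b and Htr1a each had 1 probe set above the controls on all 6 arrays, and neither passed. Htr1b 1422288_at had signals of 140.3, 149.2 and 149.6 in pregnant islets, against 105.8, 207.0 and 165.2 in non-pregnant islets. The pregnant values lie within the non-pregnant range. The log2 difference was -0.07 ± 0.23 (limma adjusted p = 0.91), or 0.95-fold with a 95% interval of 0.67 to 1.35. A second Htr1b probe set, 1442077_at, had 26.4, 51.2 and 23.7 in pregnant islets, against 31.8, 24.2 and 37.8 in non-pregnant islets, above the control range on pregnant replicate 2 and non-pregnant replicate 3. Its log2 difference was 0.04 ± 0.36.

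Htr1a 1450219_at had 50.3, 80.1 and 53.1 in pregnant islets, against 86.4, 59.6 and 62.0 in non-pregnant islets. The groups overlap, and the log2 difference was -0.15 ± 0.30 (limma adjusted p = 0.82), or 0.90-fold with an interval of 0.57 to 1.42. The other Htr1a probe set, 1438710_at, had 46.9, 73.6 and 32.5 in pregnant islets, against 45.2, 37.2 and 4.5 in non-pregnant islets. Its estimate had the opposite sign, 0.68 ± 0.47 with no filter (adjusted p = 0.57), and non-pregnant replicate 3 alone of its 6 values was within the control range.

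Htr1d had 3 probe sets, which disagreed in sign. The one tested, 1440741_at, had 25.0, 46.5 and 86.5 in pregnant islets, against 74.9, 53.3 and 82.3 in non-pregnant islets. Pregnant replicate 3 was the highest of all 6 and pregnant replicate 1 the lowest. The log2 difference was -0.41 ± 0.37 (limma adjusted p = 0.57), with a 95% interval of 0.43- to 1.32-fold. Leaving out pregnant replicate 1 gave -0.09, leaving out pregnant replicate 3 gave -0.75, and neither passed.

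The Htr1d probe set 1422290_at had 31.6, 44.7 and 52.3 in pregnant islets, against 62.3, 51.8 and 38.6 in non-pregnant islets, with a log2 difference of -0.18 ± 0.34. The third, 1440166_x_at, of a type that can hold probes shared with other transcripts, had 35.6, 5.2 and 3.2 in pregnant islets, against 10.2, 2.0 and 4.2 in non-pregnant islets. That probe set was at control level on all arrays but pregnant replicate 1. Its log2 difference was 0.38 ± 0.39.

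Htr1f was at control level. Its probe set 1440422_at stayed between 0.9 and 4.4 in pregnant and between 1.9 and 5.3 in non-pregnant islets. The other, 1450548_at, had 5.4, 2.4 and 1.7 in pregnant islets, against 32.7, 19.1 and 3.5 in non-pregnant islets. Only non-pregnant replicate 1 exceeded the highest control signal, and the groups overlap. With no filter its log2 difference was -0.75 ± 0.35 (limma adjusted p = 0.33), the lowest among the probe sets that did not pass, and its signals are too close to background to read a fold from.

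The HTR2 receptors, which include the receptor tied to beta cell division in mid-pregnancy, were at or near the level of the bacterial controls. Htr2b 1422125_at had signals of 12.1, 4.3 and 3.7 in pregnant islets, against 2.9, 2.7 and 5.0 in non-pregnant islets. All 6 lay within the range of the bacterial controls, and the groups overlap. The fit with no filter gave 0.20 ± 0.25 (limma adjusted p = 0.78), on a scale where the pseudocount of 16 exceeds every signal of the probe set, so it bounds no change of the transcript.

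Htr2c, a receptor best known from the brain, had 2 probe sets. In 1450477_at the signals were 32.1, 63.7 and 44.3 in pregnant islets, against 29.2, 47.6 and 24.7 in non-pregnant islets. It exceeded the highest control signal on 2 pregnant and 1 non-pregnant arrays. The other, 1435513_at, had 5.8, 13.7 and 16.2 in pregnant islets, against 2.0, 18.2 and 1.3 in non-pregnant islets, all within the control range. Their log2 differences with no filter were 0.33 ± 0.37 and 0.32 ± 0.33 (limma adjusted p = 0.75 and 0.73).

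Htr4, the Gs-coupled receptor, had 1 tested probe set, 1427654_a_at. It had 86.2, 28.5 and 28.2 in pregnant islets, against 62.3, 75.4 and 52.2 in non-pregnant islets. Pregnant replicate 1 was the highest of the 6, and the other pregnant arrays were the lowest and fell within the control range. The log2 difference was -0.43 ± 0.39 (limma adjusted p = 0.58), or 0.74-fold with an interval of 0.41 to 1.34. The second probe set, 1443365_at, had 2.8, 17.2 and 20.9 in pregnant islets, against 17.6, 39.8 and 6.8 in non-pregnant islets, and a log2 difference of -0.30 ± 0.41.

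The 4 serotonin receptor genes outside the set, Htr5a, Htr5b, Htr6 and Htr7, were as dim. Their 6 probe sets had signals of 3.2 to 78.0 in pregnant and 1.2 to 63.2 in non-pregnant islets, with the groups overlapping in all 6. None was above the highest control signal on all 6 arrays or bright enough to be tested, and with no filter the limma adjusted p-values lay between 0.51 and 0.97.

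The genes that carry the receptors' signals inside the cell were readily measured, unlike the receptors. Of 12 listed genes around Gi and Go, through which the HTR1 receptors act, 10 were tested, 3 rose and 2 fell, with a median log2 difference of 0.20. Over all genes tested 11.9% passed, 6.1% higher and 5.79% lower. The inhibitory G protein subunit Gnai1 had 5493, 5432 and 5353 in pregnant islets, against 3571, 3670 and 3360 in non-pregnant islets (log2 difference 0.62 ± 0.06, limma adjusted p = 5.6e-05). Gnai2 had a mean of 10165 ± 255 in pregnant and 7501 ± 241 in non-pregnant islets (SD, n = 3 each), a log2 difference of 0.44 ± 0.05 (adjusted p = 3.2e-04). Both subunits pass receptor signals on to adenylyl cyclase. The third to rise, Rgs4, which was named after its value was seen, had 0.40 ± 0.08 (adjusted p = 0.0096).

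Both that fell, and also Rgs4, which rose, encode regulators that speed the shut-off of G protein signals. Rgs2, which acts on Gq but was counted in this list, had 6403, 6805 and 5806 in pregnant islets, against 15744, 15219 and 13973 in non-pregnant islets. Its log2 difference was -1.24 ± 0.07 (limma adjusted p = 6.4e-07), and no array of one group came near those of the other. Rgs16 had 1177, 1190 and 1140 in pregnant islets, against 1881, 1818 and 1997 in non-pregnant islets (-0.69 ± 0.08, adjusted p = 1.3e-04). Gnai1, Rgs2 and Rgs16 passed in all 17 other settings run on probe sets. Gnai2 missed the threshold without the variance trend (adjusted p = 0.054) and with the acinar covariate (0.36, adjusted p = 0.088). Rgs4 missed it in both of these settings too, where Gnai1 was the 1 gene of the list that passed as higher.

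In the Gq and Gs lists the share of genes that passed was near the 11.9% of all genes. Of 12 tested genes listed for Gq signalling, the route of the HTR2 receptors, Rgs2 not included, 0 rose and 1 fell, with a median of -0.23. That one was the protein kinase C gene Prkcb, with a mean of 3525 ± 176 in pregnant and 4213 ± 142 in non-pregnant islets (-0.26 ± 0.06, limma adjusted p = 0.025). Its adjusted p was 0.24 with each array centred on its median, 0.17 without the variance trend and 0.46 with the acinar covariate. It was 0.11 and 0.095 without pregnant replicates 1 and 2, and 0.056 and 0.069 without non-pregnant replicates 1 and 2. Of 18 tested genes of Gs and cyclic AMP signalling, the route of HTR4, 1 rose and 1 fell, with a median of -0.13. Prkar2b, a regulatory subunit of protein kinase A, had 1715, 1695 and 1685 in pregnant islets, against 1197, 1279 and 1100 in non-pregnant islets (0.51 ± 0.08, adjusted p = 0.0020). It missed the threshold without the variance trend (adjusted p = 0.051) and with the acinar covariate (0.37, adjusted p = 0.25). The adenylyl cyclase Adcy6 had a mean of 1777 ± 67.5 in pregnant and 2149 ± 129 in non-pregnant islets (-0.27 ± 0.07, adjusted p = 0.040). Its adjusted p was 0.10, 0.14 and 0.076 without pregnant replicates 1, 2 and 3, and 0.088 and 0.12 without non-pregnant replicates 1 and 3. It was 0.056 with no filter, 0.26 with median centring, 0.17 without the trend and 0.71 with the acinar covariate (-0.14).

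Of 13 tested genes for receptor partners, desensitisation and RNA editing, among them the arrestins, receptor kinases, the HTR1B and HTR4 partner S100a10 and the editing enzyme Adarb1, 0 rose and 0 fell, with a median of -0.09. In limma 11.9% of all genes passed.

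Of the genes that make the ligand, Tph1, Tph2 and Ddc rose. Those listed for the cofactor of tryptophan hydroxylase, Gch1, Pts, Spr, Qdpr and Pcbd1, did not pass. Of 14 tested genes of serotonin synthesis, storage, uptake and breakdown, 3 rose and 1 fell, with a median of -0.03. Beside these counts, 6.1% of all genes tested passed as higher and 5.79% as lower. The largest rise in this list was that of Tph1, the tryptophan hydroxylase of peripheral tissues, with 4914, 4389 and 4944 in pregnant islets, against 50.3, 80.8 and 28.6 in non-pregnant islets (6.17 ± 0.21, limma adjusted p = 7.1e-09). Tph2 (3.92 ± 0.22, adjusted p = 7.9e-07) and the decarboxylase Ddc (0.36 ± 0.05, adjusted p = 7.8e-04) rose too. Slc29a4, a low-affinity monoamine transporter of the plasma membrane, had 1031, 977 and 1199 in pregnant islets, against 1479, 1468 and 1622 in non-pregnant islets (-0.51 ± 0.09, adjusted p = 0.0049). Ddc and Slc29a4 missed the threshold without the variance trend (adjusted p = 0.079 and 0.075) and with the acinar covariate (0.073, and 0.36 with a difference of -0.35).

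**Figure D4:**
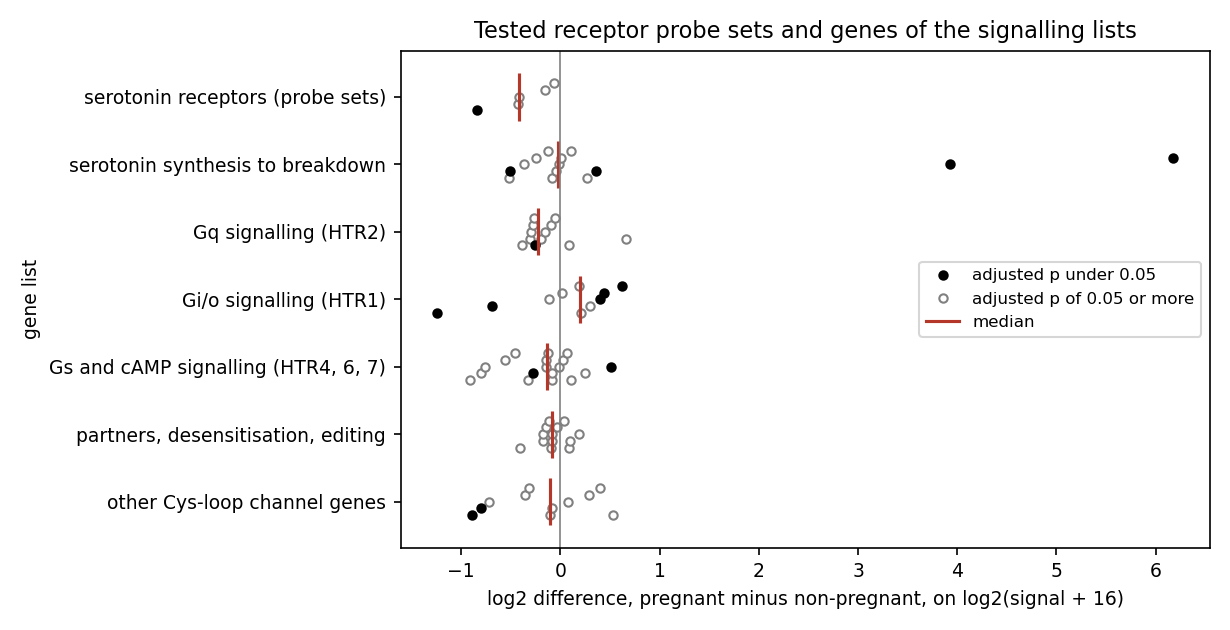
Log2 difference, pregnant minus non-pregnant, of the 5 tested serotonin receptor probe sets (top) and of each tested gene of 6 lists by its brightest probe set; filled points passed an adjusted p of 0.05 in limma and bars mark medians. Htr3a is the filled point of the receptors, and Tph1 and Tph2 lie far to the right.

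Markers of other cells that could be in the samples were read beside Htr3a. Their counts stand against 11.9% of all genes that passed, 6.1% higher and 5.79% lower. Of 8 tested markers of nerve and Schwann cells, 1 rose and 1 fell, with a median log2 difference of -0.36. The median of that list, centred per gene, was -0.36, -0.09 and -0.09 on pregnant arrays 1, 2 and 3, against 0.13, 0.21 and 0.18 on non-pregnant arrays. Its summed signal was 1889 to 2347 in pregnant and 2408 to 2558 in non-pregnant islets. The largest means in it were those of Th (1050 in pregnant and 1032 in non-pregnant islets) and Prph (323.3 and 701.4), so the sum rests on few genes. None of the 9 named genes of the list was at or under the highest control signal on all 6 arrays. Prph, the neuronal intermediate filament peripherin, had 157.2, 447.8 and 365.0 in pregnant islets, against 797.5, 540.2 and 766.5 in non-pregnant islets (-1.18 ± 0.29, limma adjusted p = 0.024). Prph missed the threshold without non-pregnant replicate 1 (adjusted p = 0.082), without non-pregnant replicate 3 (0.077), with no filter (0.063), with robust eBayes (0.12), without the variance trend (0.17) and with the acinar covariate (-0.26, 0.85). Ngfr, the low-affinity neurotrophin receptor, rose by 1.61 ± 0.20 (adjusted p = 3.3e-04; 0.11 with the acinar covariate).

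Of 10 tested markers of stellate cells and fibroblasts, 0 rose and 3 fell, with a median of -0.58. The list had -0.44, -0.25 and -0.04 on pregnant arrays 1, 2 and 3, against 0.29, 0.25 and 0.29 on non-pregnant arrays, with a summed signal of 10164 to 13077 in pregnant and 14563 to 14937 in non-pregnant islets. In limma Dcn had -1.20 ± 0.14, Col3a1 -0.75 ± 0.11 and Col1a2 -0.73 ± 0.11 (adjusted p = 2.8e-04, 9.5e-04 and 0.0011). With the acinar covariate their adjusted p-values were 0.098, 0.17 and 0.16, and Col3a1 had 0.060 without the variance trend. Of 16 tested markers of acinar cells, the enzyme-secreting cells of the exocrine pancreas, 0 rose and 15 fell, with a median of -1.11. Examples were Cela1 (-1.08 ± 0.17), Pnliprp2 (-1.74 ± 0.30), Sycn (-1.60 ± 0.30) and Pnliprp1 (-1.58 ± 0.30), with limma adjusted p-values of 0.0017 to 0.0063. These 4 missed the threshold without the variance trend, with robust eBayes and with the acinar covariate, which is built from them. That list had -0.91, -0.61 and -0.24 on pregnant arrays 1, 2 and 3, against 0.89, -0.12 and 0.93 on non-pregnant arrays. Its summed signal was 118158 to 191762 in pregnant and 201431 to 378496 in non-pregnant islets, and 1 marker, Rbpjl, was at or under the highest control signal on all 6 arrays.

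Htr3a had 144.2, 146.7 and 228.5 on pregnant arrays 1, 2 and 3, where the acinar median was -0.91, -0.61 and -0.24. On non-pregnant arrays 1, 2 and 3 Htr3a had 335.6, 332.1 and 281.3, beside acinar medians of 0.89, -0.12 and 0.93. Endothelial markers had 0 higher and 1 lower of 10 (Flt1, -0.47 ± 0.10, limma adjusted p = 0.010, but 0.083 without the variance trend and 0.14 with the acinar covariate), a median of -0.16, and a summed signal of 8978 to 10150 in pregnant and 10160 to 11066 in non-pregnant islets. Islet endocrine markers had 0 higher and 2 lower of 10 (Ghrl, -1.14 ± 0.16, and Irx1, -0.40 ± 0.11, adjusted p = 9.8e-04 and 0.033) and a median of -0.04. With the acinar covariate Ghrl had an adjusted p of 0.20. The summed signals overlapped, at 256698 to 270736 in pregnant and 253104 to 275857 in non-pregnant islets. Most of that sum came from Iapp, Gcg, Sst, Ppy and Chga. Their means ran from 41575 (Chga) to 52021 (Ppy) in pregnant islets. Whether nerve, stellate, acinar or endothelial cells contribute to the Htr3a difference was not tested. The acinar covariate above cannot decide it, since it separates poorly from pregnancy.

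**Figure D5:**
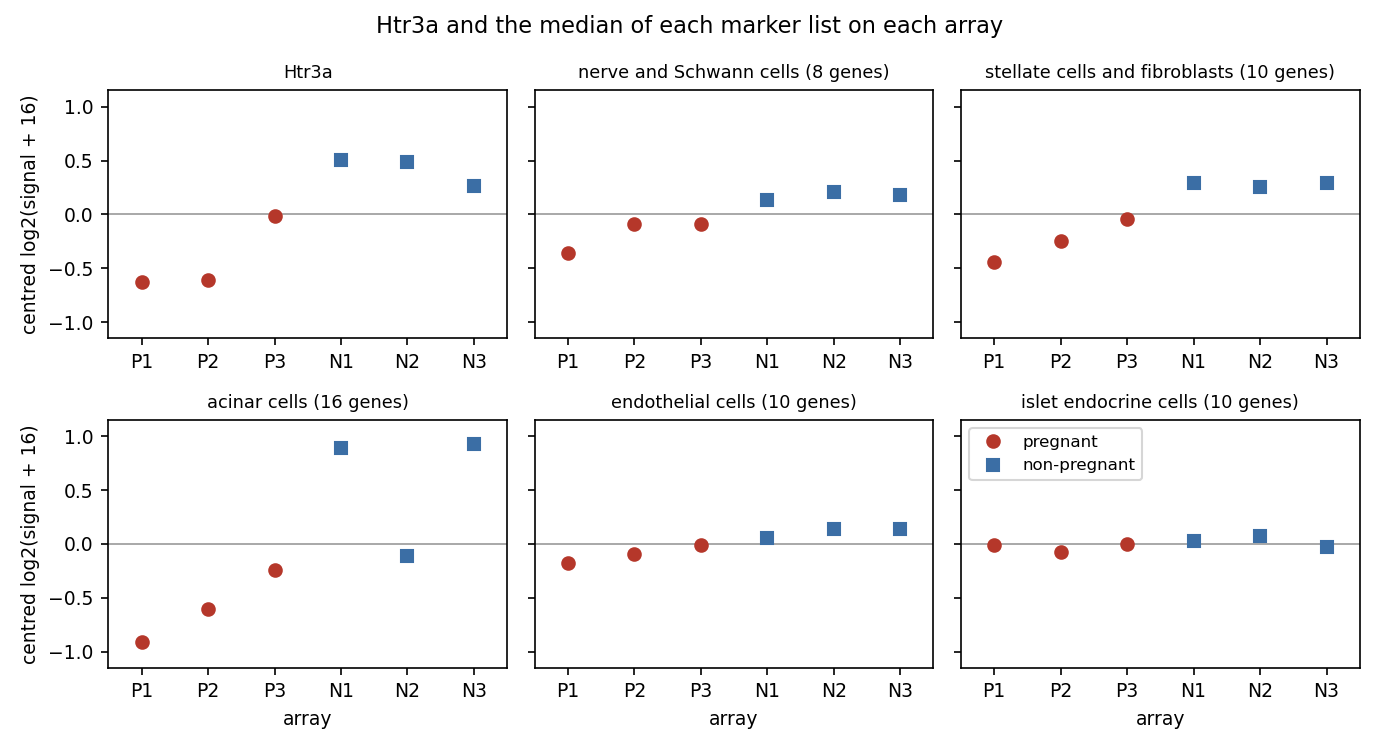
Centred log2(signal + 16) of Htr3a and, for 5 marker lists, the median over the tested genes centred per gene, on pregnant arrays P1 to P3 (circles) and non-pregnant arrays N1 to N3 (squares). Htr3a, the nerve, stellate, acinar and endothelial lists are lower on all 3 pregnant arrays, and the islet endocrine list overlaps.

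Further marker lists were read for cells that could carry serotonin receptors. Of 5 tested duct markers 1 rose (Krt18, 0.33 ± 0.05) and 1 fell (Krt7, -0.27 ± 0.06), with limma adjusted p-values of 0.0024 and 0.016 and a list median of -0.10. Krt18 had 0.10 without the variance trend and 0.26 with the acinar covariate. The summed signal of the duct list was 30790 to 33162 in pregnant and 28976 to 32802 in non-pregnant islets. Nearly all of it came from Krt8, Krt18 and Krt7, with means of 13534, 13291 and 4646 in pregnant islets. Krt19 and Sox9 were dim, with means of 75.1 and 62.7 in pregnant and 38.4 and 71.1 in non-pregnant islets. Of 8 tested macrophage and lymphocyte markers 1 rose, the complement gene C1qa (1.06 ± 0.08, adjusted p = 1.1e-05), and 0 fell, with a list median of 0.03. C1qa had mean signals of 7300 ± 613 in pregnant and 3505 ± 352 in non-pregnant islets (SD, n = 3 each). The summed signal of the list, C1qa included, was 9122 to 10191 in pregnant and 5925 to 6364 in non-pregnant islets. Most of that sum came from C1qa, and the other 7 tested markers did not pass. Cd3e, of T cells, was at or under the highest control signal on all 6 arrays. Of 4 tested markers of mast cells and platelets 0 rose and 1 fell (Kit, -0.80 ± 0.22, adjusted p = 0.042), with a list median of 0.28, and Mcpt4 and Fcer1a were at or under the highest control signal on all 6 arrays. Their summed signals overlapped, at 721 to 769 in pregnant and 652 to 820 in non-pregnant islets. Of 17 other settings, Kit missed the threshold in 11, Irx1 in 10 and Krt7 in 6. Kit and Irx1 missed it with quantile normalization (adjusted p = 0.059 and 0.054), median centring (0.052 and 0.12) and the replicate block (0.055 and 0.051). Without 1 array Kit had adjusted p-values of up to 0.16 (without non-pregnant replicate 2), Irx1 of up to 0.11 (without pregnant replicate 2) and Krt7 of up to 0.080 (without pregnant replicate 1).

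Over the 6 arrays, the tested probe sets of other named genes most like Htr3a by Pearson's r were those of Zfp799 (0.997), Rarres2 (0.994) and Itpr3 (0.994). Zfp799 encodes a zinc finger protein, Rarres2 the secreted chemoattractant chemerin and Itpr3 a calcium release channel of the endoplasmic reticulum. Zfp799 had 592.7, 587.7 and 634.3 in pregnant islets, against 684.8, 688.6 and 665.2 in non-pregnant islets. Pearson's r does not reflect the size of a change, and that of Zfp799 was smaller than that of Htr3a. Rarres2 had 88.0, 87.0 and 150.7 in pregnant islets, against 207.4, 233.4 and 186.9 in non-pregnant islets, so pregnant replicate 3 was again the highest of its group. Itpr3 had 430.5, 419.8 and 531.3 in pregnant islets, against 608.2, 633.4 and 574.8 in non-pregnant islets, and its difference of -0.39 ± 0.12 did not pass (limma adjusted p = 0.062). Of 23335 such probe sets, 208 had r above 0.95. The 6 points of each correlation share the group difference.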

How the data were processed

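The authors deposited 1 MAS5 signal per probe set and array, an intensity on a linear scale. The use of MAS5 comes from the submitters' processing notes, whose version is not given here. Total RNA was labelled with biotin as cRNA, per the labels' protocols. The table held 45101 probe sets on 6 arrays, and 64 AFFX controls were left out of the fits.

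Symbols came from the platform annotation (34958 probe sets with 1 symbol, 932 with several, 9211 unnamed here). Through the RefSeq table of GRCm38.p6, 34754 were found and 0 changed. Differences were fitted with limma 3.58.1 in R 4.3.3 on log2(signal + 16), with eBayes and a variance trend, 2-sided, with no covariate and 4 residual degrees of freedom. The top 60% of probe sets by mean were tested (27022), and Benjamini-Hochberg adjusted p-values were taken over all of them. Errors of signals are SDs and those of differences limma's standard errors. The number of arrays limits the precision. A list's gene is read from its brightest probe set, and up to 4 passing genes per list are named, by p, along with all receptor probe sets and the 3 probe sets most like one that passed. Receptors and lists were chosen with earlier results of these data known. No 2 arrays of a group shared more than 0.248% of values.

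The shared replicate numbers were checked for pairing: deviations of same-numbered arrays correlated at -0.03, -0.07 and 0.03, so no pairing was used. Alternatives were 2 other pseudocounts, quantile normalization, median centring, other filters, other variance models, array weights, a replicate block, each array left out, an acinar covariate and 1 mean value per gene. Figures used matplotlib 3.10.9.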

Additional observations from a re-analysis of the deposited data

How the results depend on the processing

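The count of 1 serotonin receptor probe set past the threshold, Htr3a, held with pseudocounts of 1 and 64, quantile normalization, median centring, no filter, a top 40% filter, robust eBayes, array weights, the replicate block and 1 mean value per gene. It was 0 to 1 with any 1 array left out, and 0 without the variance trend and with the acinar covariate. Htr3a had -0.84 (adjusted p = 0.083) without the trend, -0.66 (0.42) with the covariate and -1.04 to -0.73 with any 1 array left out. The replicate block gave Htr3a -0.84 (adjusted p = 0.026), and it changed no receptor call. Differences that did not pass turned sign in 3 probe sets and passed in none. Htr1a had 0.069 and Htr1d 0.54 with the acinar covariate, and Htr1b had 0.0079 with median centring and ran from -0.31 to 0.13 with any 1 array left out. Of the signalling and channel lists 14 genes passed, 6 without the trend and 7 with the acinar covariate. Of the marker lists 27 passed, 5 without the trend and 1 with the covariate, which is built from the 17 acinar markers named on the array. Over all probe sets tested 2587 passed, 603 without the trend, 505 with the covariate, 1482 without pregnant replicate 1 and 1577 without pregnant replicate 2. With median centring 1430 were higher and 583 lower, against 1294 and 1293 as reported. Signal over background limits the receptors, since 11 of 16 probe sets were too dim to be tested.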
